A study of Mus musculus with 24 samples.

Results

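The nuclei described here are the ventral inhibitory neurons of the mouse lumbar spinal cord, taken as every barcode that the authors' deposited annotation places in a population named VI plus a number. They came to 612 of 18000 barcodes, or 14.3% of the 4280 neuronal nuclei that carry a population code, and fell into 5 populations, VI-1 to VI-5. The letters of the codes were taken to stand for position (D dorsal, M mid, V ventral) and for transmitter (E excitatory, I inhibitory), while VC and VM were left unread. The study profiled single nuclei in 24 mice by Drop-seq, in which every captured transcript receives a unique molecular identifier (UMI) inside a droplet. All mice were of the outbred ICR/CD-1 stock, male and female, 8 to 11 weeks old, with no transgene or deletion named. The 9 control mice had no stimulus named, the 10 formalin mice were injected with 30 µl of 2% paraformaldehyde into the sole of both hindpaws, a painful stimulus, and the 5 rotarod mice walked on a rod accelerating from 0 to 40 rotations per minute, a motor task. Formalin and rotarod mice were habituated beforehand. Brain is the tissue on the labels, but the dissection protocol describes the lumbar cord.

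Inhibitory interneurons of the ventral horn shape the timing and strength of motor output. They release glycine, GABA or both, and during development they arise from progenitor domains that also give the named classes V1, V2b and dI6, each marked in the embryo by its own transcription factors. Glycinergic neurons are marked by Slc6a5, which encodes the glycine transporter GlyT2, and GABAergic neurons by Gad1 and Gad2, which encode the enzymes that make GABA. Slc17a6 encodes the vesicular glutamate transporter VGLUT2 of excitatory spinal neurons. The 3 genes that the check of the family name turned on lie, in GENCODE M21 on GRCm38, on chromosome 7 from 49910146 to 49963856 (Slc6a5, plus strand), chromosome 2 from 22622205 to 22693874 (Gad2, plus strand) and chromosome 7 from 51622006 to 51671119 (Slc17a6, plus strand). All 3 are protein coding. Counts are given per gene, so no exon or intron can be named.

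Each mouse contributed 750 barcodes, and total UMIs per mouse ranged from 549903 to 3243587. A VI nucleus held a median of 3142 UMIs, against 2528 in DI and 6192.5 in VE nuclei. The summed VI nuclei of a mouse held 8589 to 640858 UMIs, and 22 of 24 mice reached the minimum of 5 VI nuclei used for levels: 8 control, 10 formalin and 4 rotarod mice. Levels are counts per 1000000 UMIs (CPM) of the summed nuclei of a mouse. A population code was given to 66.8% of neuronal nuclei in control, 50.5% in formalin and 62.1% in rotarod mice. Of 276 pairs of libraries, 24 shared a barcode sequence, at most 4 in a pair, and no VI barcode was shared. Formalin samples 1 to 5 resembled samples 6 to 10 in order: over all neurons, deviations from the group mean correlated at 0.26 within these pairs, and each of the 10 had its partner as nearest sample. Values that depend on 10 separate formalin mice are therefore also given with the pairs merged where this changes a call.

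The makeup of VI nuclei differed strongly between mice. VI-2 was the most numerous population with 219 nuclei, and 210 of these came from 4 mice: control 9 gave 117, control 7 gave 52, rotarod 3 gave 25 and control 8 gave 16. The 10 formalin mice together held 2 VI-2 nuclei. VI-3, with 37 nuclei, had 35 in the same 4 mice and none in formalin mice. The 3 control mice among them are those whose titles end in cx, a label the sources used here do not explain. The other populations were spread more widely: the 178 VI-1 nuclei came from 23 mice, the 123 VI-5 nuclei from 21 and the 55 VI-4 nuclei from 19. VI-1 in turn was scarce in those 4 mice, which held 10 of its 178 nuclei. VI nuclei made up 44.1% of coded neurons in control 9, 36.5% in rotarod 3 and 28.9% in control 7, and 4.12% to 19.7% in the other 21 mice. With VI-2 and VI-3 left out of the VI count but kept among the coded neurons, the values of these 3 mice were 1.03%, 4.71% and 9.27%.

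**Figure D1:**
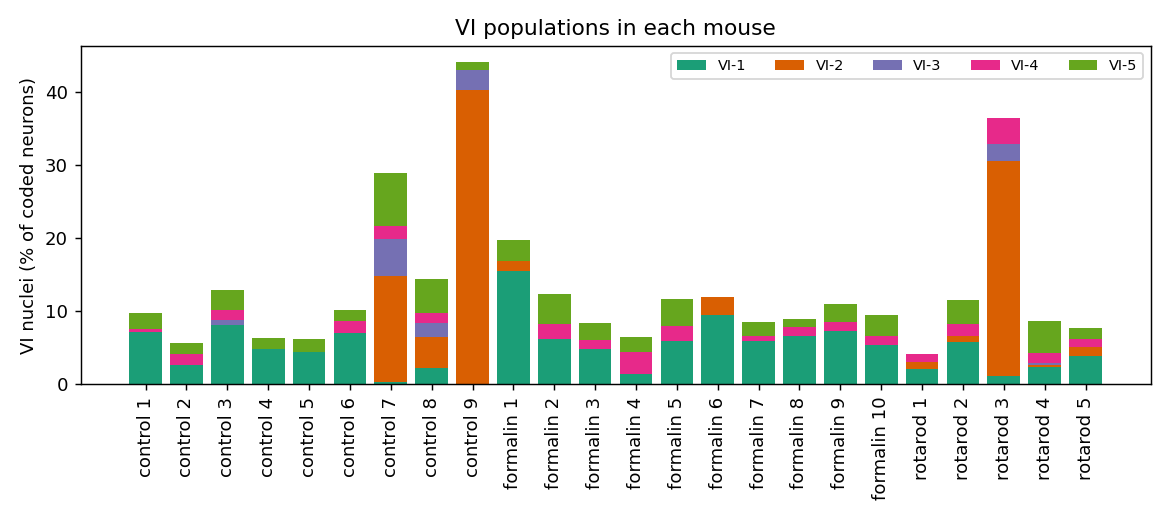
VI nuclei as a percent of the coded neurons of each of 24 mice, stacked by population. The VI-2 and VI-3 segments stand almost entirely in controls 7, 8 and 9 and rotarod 3, and control 9 reaches 44.1%.

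The populations also differed in depth and in mitochondrial transcripts. Median UMIs per nucleus were 2184 in VI-2, 2513.5 in VI-1, 4803 in VI-3, 6127 in VI-4 and 10816 in VI-5, and no VI-5 nucleus held fewer than 4855. Transcripts of the mitochondrial genome, which nuclei do not make, were 1.93% of UMIs in VI-2, against 0.790% in VI-1, 0.802% in VI-3, 0.597% in VI-4 and 0.473% in VI-5. The 9 VI-2 nuclei from the other 20 mice held 1.87%. DI nuclei of the 4 mice rich in VI-2 held 1.18%, against 0.788% in the other 20 mice. The 6 oligodendrocyte markers summed to 3040 CPM in VI-2, against 578 to 1611 in the other populations and 17572 in oligodendrocytes. The 3 neuronal markers were lowest in VI-2, at 1874 CPM, and highest in VI-5, at 3021 CPM, with 678 in oligodendrocytes. Astrocyte markers reached at most 121 CPM, also in VI-2, and microglial, endothelial, precursor and Schwann or meningeal markers at most 35.0, 46.4, 18.6 and 113 CPM in any population. The part of these transcripts in the placing of nuclei in VI-2 was not tested.

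The glycinergic marker was present in every VI population. Slc6a5 stood at 158 CPM in VI-1 (95% exact Poisson interval 125 to 198), 102 in VI-2 (76.9 to 133), 109 in VI-3 (66.5 to 168), 185 in VI-4 (144 to 235) and 170 in VI-5 (150 to 192). These are pooled over nuclei, and their intervals cover counting error only. Over mice with at least 5 nuclei of a population, Slc6a5 stood at 157 ± 110 CPM in VI-1 (n = 16), 140 ± 100 in VI-2 (n = 4), 88.7 ± 31.0 in VI-3 (n = 3), 183 ± 109 in VI-4 (n = 4) and 194 ± 62.7 in VI-5 (n = 9). The ranges over mice overlapped, so the populations could not be ordered by this gene. Gad2 stood at 77.3 CPM in VI-5 (63.9 to 92.5), 49.4 in VI-1 (31.6 to 73.5), 44.3 in VI-4 (25.3 to 71.9), 33.4 in VI-2 (19.8 to 52.8) and 16.3 in VI-3 (3.37 to 47.7), the last from 3 UMIs.

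Slc17a6, the marker of excitatory neurons, was seen in every population, at lower pooled levels in VI-4 and VI-5. It stood at 63.8 CPM in VI-1 (43.3 to 90.5), 52.0 in VI-2 (34.5 to 75.1) and 43.5 in VI-3 (18.8 to 85.8). In VI-4 it stood at 11.1 (3.01 to 28.3) and in VI-5 at 21.6 (14.9 to 30.3). The pooled intervals of VI-1 and VI-2 lie above those of VI-4 and VI-5. Over mice it stood at 66.2 ± 62.6 CPM in VI-1 (n = 16), 49.8 ± 4.60 in VI-2 (n = 4), 50.2 ± 39.0 in VI-3 (n = 3), 8.93 ± 17.9 in VI-4 (n = 4) and 13.8 ± 15.9 in VI-5 (n = 9). The values of VI-1, from 0 to 210, and of VI-3, from 20.7 to 94.4, overlapped those of VI-4 and VI-5, whose highest were 35.7 and 38.9, while the lowest of VI-2 was 46.5. The presence of Slc17a6 beside Slc6a5 goes in part against the inhibitory label, within the limit set by oligodendrocytes that is given below.

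**Figure D2:**
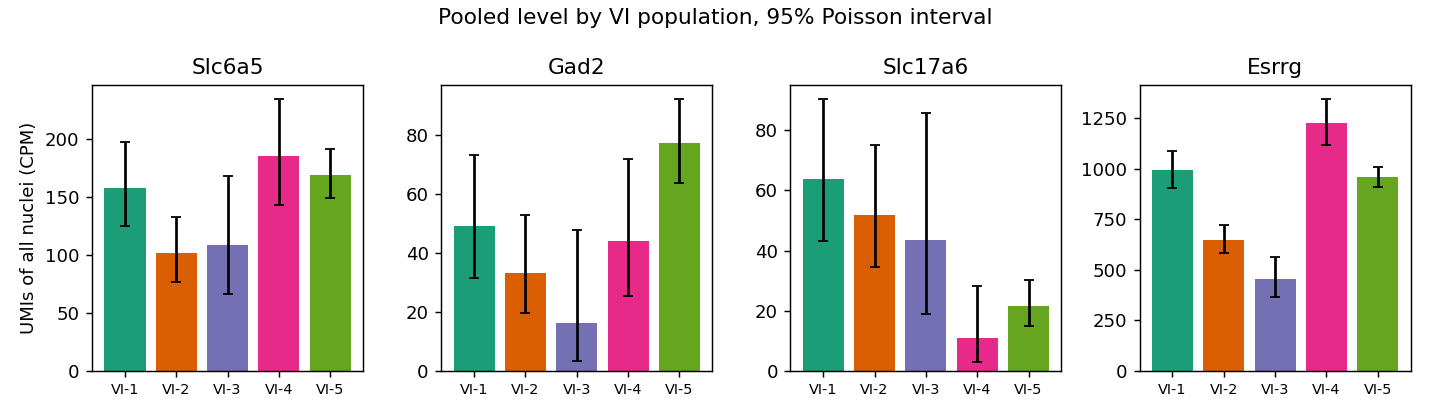
Pooled CPM of Slc6a5, Gad2, Slc17a6 and Esrrg in the 5 VI populations, with 95% exact Poisson intervals that cover counting error only. Slc17a6 stands at 43.5 to 63.8 CPM in VI-1, VI-2 and VI-3 and at 11.1 and 21.6 CPM in VI-4 and VI-5.

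Single nuclei were compared after thinning each to 1000 UMIs, since detection depends on depth. The family and its populations were thinned in separate random draws, so their counts do not add up. The spread between draws is not given. At this depth 4.74% of 612 VI nuclei held Slc17a6, against 0.568% of 880 DI nuclei, 9.38% of 416 VE nuclei and 1.93% of 1193 oligodendrocytes, which should lack the gene. The share was 3.37% in VI-1, 6.39% in VI-2, 2.70% in VI-3 and 3.25% in VI-5, and 0 of 55 VI-4 nuclei held it, which an exact binomial interval puts at up to 6.49%. The intervals of the 5 populations overlapped, so single nuclei did not separate VI-1 to VI-3 from VI-5. As counted, the share was 12.4% in VI-1, 12.3% in VI-2, 13.5% in VI-3, 7.27% in VI-4 and 13.8% in VI-5, at the differing depths given above. At least 1 of the inhibitory genes was seen in 20.3% of VI nuclei, 29.3% of DI, 4.57% of VE and 3.44% of oligodendrocytes. As counted, at a median of 3142 UMIs, 36.9% of VI nuclei held Slc6a5, 17.0% Gad2 and 12.3% Slc17a6, against 1.65%, 1.56% and 2.70% of oligodendrocytes at a median of 1092 UMIs. Both an inhibitory gene and Slc17a6 were seen in 16 VI nuclei, or 2.61%, and neither in 41.8%. Most VI nuclei that held Slc17a6 thus held no inhibitory transcript at this depth: 59 of 75.

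Next, the family was set beside DI, the dorsal inhibitory, and VE, the ventral excitatory family, within the same control mice. The families are groups of nuclei that were formed from their expression, so these differences are a description and carry no test. Slc6a5 in VI nuclei stood at 136, 114, 177, 159, 132, 106, 176 and 92.0 CPM in controls 1, 2, 3, 5, 6, 7, 8 and 9, a mean of 136 ± 31.8 (SD, n = 8). In DI it stood at 142 ± 50.3 (n = 9) and in VE at 37.6 ± 27.7 (n = 8). VI exceeded DI in 4 of 8 mice and VE in 8 of 8, so the glycinergic marker did not separate the 2 inhibitory families. In MI, the mid inhibitory family, it stood at 121 CPM, and in DE, the dorsal excitatory family, at 9.22.

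Genes of GABA synthesis, in contrast, stood lower in VI than in DI. Gad1 stood at 12.3 ± 8.64 CPM in VI and 63.8 ± 36.4 in DI, and was lower in VI in 8 of 8 mice. Gad2 stood at 64.3 ± 41.7 and 118 ± 34.2 CPM and was lower in 7 of 8 mice, all but control 2 at 157 CPM. Slc32a1, the vesicular transporter shared by GABA and glycine, stood at 14.4 ± 11.2 and 23.9 ± 18.0 CPM. Slc17a6 stood at 37.4 ± 18.0 CPM in VI, between 12.8 ± 14.8 in DI and 79.2 ± 20.7 in VE, and was above DI in 7 of 8 mice and below VE in 7 of 8.

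**Figure D3:**
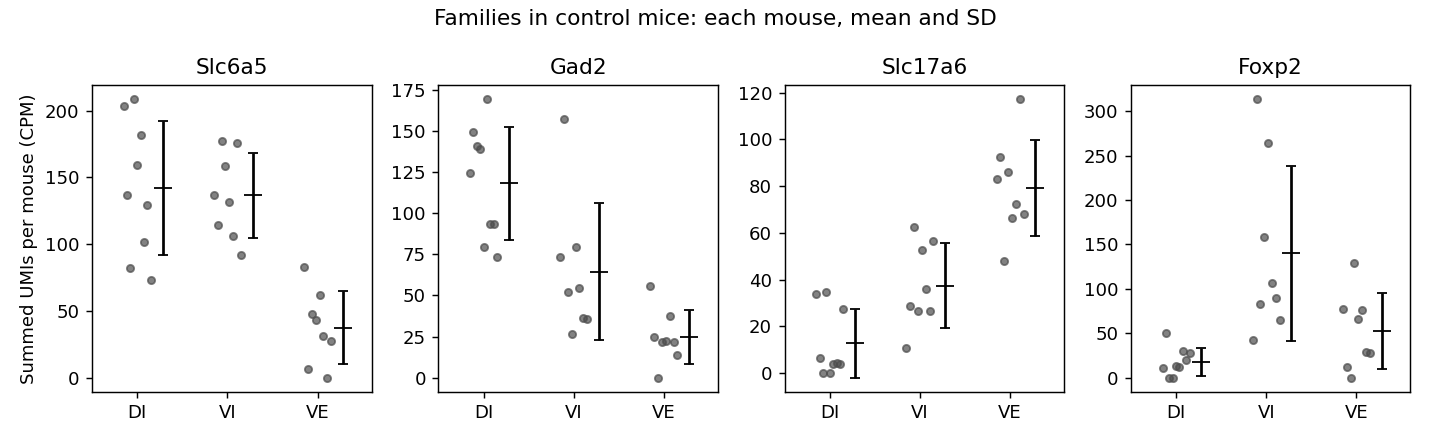
CPM of Slc6a5, Gad2, Slc17a6 and Foxp2 in the summed DI, VI and VE nuclei of each control mouse (points, 9 for DI and 8 for VI and VE), with the mean and SD beside them. Slc6a5 overlaps between DI and VI, while Slc17a6 is intermediate in VI at a mean of 37.4 CPM.

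Across genes, VI nuclei differed far less from VE than from DI. A gene was counted as higher when it reached a mean of 20 CPM in VI, a mean within-mouse difference of at least 1 on the log2(CPM + 5) scale and a higher value in every mouse, and as lower by the mirror of this rule. Against DI, 151 of 7117 genes (2.12%) were higher in VI and 208 (2.92%) lower. Against VE, 40 of 7031 (0.569%) were higher and 7 (0.0996%) lower, the smallest counts against any family. MI came next with 95 of 7245 (1.31%) higher and 55 (0.759%) lower, and DE had 223 of 7116 (3.13%) and 296 (4.16%). VC had 159 of 7285 (2.18%) higher and 76 (1.04%) lower, VM 212 of 7122 (2.98%) and 70 (0.983%) over 5 mice, and ME 305 of 7627 (4%) and 44 (0.577%) over 7. The number of nuclei behind each value differs between families, and its part in these counts was not tested.

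Dorsal transcription factors were lower in VI than in DI. Of the 10 factors listed for dorsal inhibitory neurons, 9 were in the count data and 8 reached 20 CPM. Of these 8, 6 were lower in VI and none higher, beside 2.92% lower and 2.12% higher over all genes. Their median difference was -2.29 against 0.08 over all 7117 genes. Bcl11a stood at 30.7 ± 22.6 CPM in VI and 221 ± 43.8 in DI. Rorb, a nuclear receptor of deep dorsal horn neurons, stood at 66.2 ± 29.1 and 457 ± 254. Gbx1, Pax8, Lhx1 and Zic1 were the others. Pax2, which marks most spinal inhibitory neurons, stood at 106 ± 37.7 CPM in VI and 219 ± 55.5 in DI and was lower in 7 of 8 mice.

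Factors linked to ventral neurons were higher in VI than in DI. Esrrg, an orphan nuclear receptor listed here with ventral excitatory factors (chromosome 1 from 187608791 to 188214885, plus strand), stood at 679 to 1245 CPM in the 8 control mice and at 119 to 331 in DI, so the families did not overlap. Its mean was 893 ± 196 CPM in VI, 203 ± 68.9 in DI and 660 ± 66.7 in VE. Foxp2, a forkhead factor of V1 neurons (chromosome 6 from 14901349 to 15441977, plus strand), stood at 140 ± 98.6 CPM in VI, 18.2 ± 15.8 in DI and 52.3 ± 42.8 in VE. Its VI values were 42.0, 314, 83.3, 159, 264, 106, 89.5 and 65.3 CPM in controls 1, 2, 3, 5, 6, 7, 8 and 9, all above the DI value of the same mouse. Zfhx3, a zinc finger and homeobox factor, stood at 444 ± 154 and 149 ± 62.9.

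Most embryonic class markers were near 0 in these adult nuclei. Over the control mice, VI nuclei held 2 UMIs of En1, the defining factor of V1 neurons, 4 of Gata3 and 3 of Tal1, both V2b factors, 2 of Dmrt3, a dI6 factor, and 1 of Chrna2, a marker of Renshaw cells. None of the 3 V2b factors and none of the 8 dI6 and V0 factors reached 20 CPM. Of the 11 V1 factors, 5 reached it, and Foxp2 was among those higher than in DI. Pooled over nuclei, Foxp2 stood at 135 CPM in VI-5 (118 to 155), 99.6 in VI-4 (69.7 to 138), 57.6 in VI-1 (38.3 to 83.3), 54.4 in VI-3 (26.1 to 100.1) and 44.5 in VI-2 (28.5 to 66.3). Over mice the order of the highest populations turned, with 205 ± 192 CPM in VI-4 (n = 4) and 137 ± 121 in VI-5 (n = 9), beside 48.6 ± 51.5 in VI-1 (n = 16), 76.3 ± 91.0 in VI-3 (n = 3) and 45.0 ± 22.6 in VI-2 (n = 4), and the values overlapped. Only 35 of 123 VI-5 nuclei held it, although their depth was the highest.

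A smaller set of genes held in every mouse of all 3 groups. With the same rule over 22 mice, 25 genes were higher in VI than in DI, 19 of them among the 151 of the control mice. These genes were chosen after their values were seen, except list members, among them Esrrg, Kcna1 and Scn8a. Ntng1, which encodes netrin-G1, a membrane-bound relative of the netrins, stood at 470 ± 205 CPM in VI and 63.6 ± 30.8 in DI. Slit2, an axon guidance ligand, stood at 598 ± 176 and 102 ± 61.7. The neurofilament genes Nefh, at 214 ± 86.7 against 55.6 ± 32.2, and Nefm, at 386 ± 153 against 168 ± 73.0, and Syt2, a fast synaptic calcium sensor, at 341 ± 73.8 against 138 ± 43.3, were in the set. So were Scn8a, the sodium channel Nav1.6, at 602 ± 99.0 against 304 ± 95.7 CPM, and Kcna1, the potassium channel Kv1.1, at 116 ± 56.9 against 43.1 ± 22.3, although neither passed the rule in the control mice alone.

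**Figure D4:**
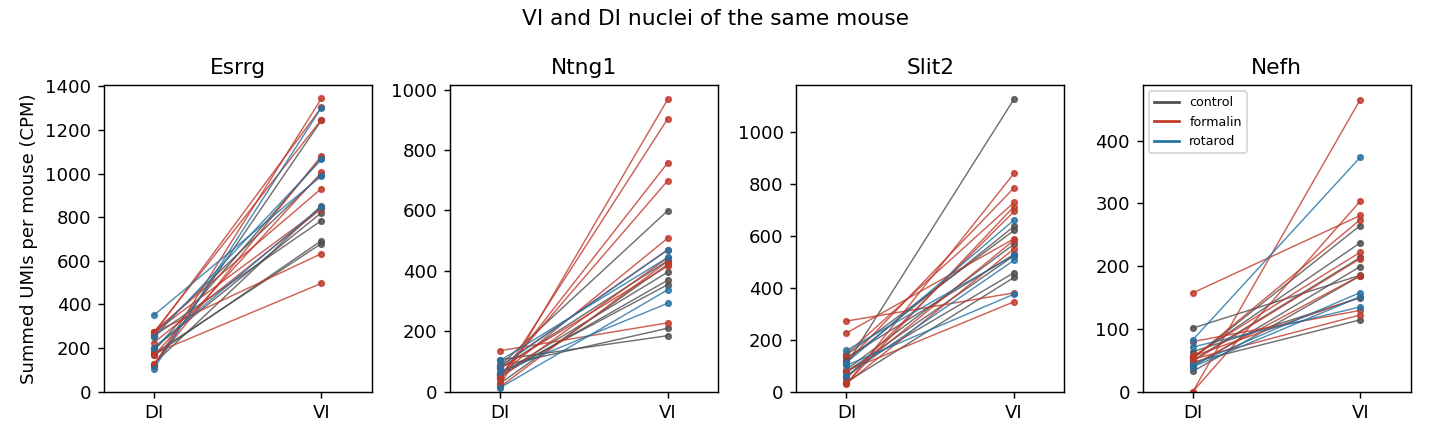
CPM of Esrrg, Ntng1, Slit2 and Nefh in the DI and VI nuclei of the same mouse, 1 line for each of 22 mice coloured by group. Every line goes up from DI to VI for these 4 genes, which were selected by that property.

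Over 18 mice with enough nuclei in both families, 2 genes held against VE: Slc6a5, at 164 ± 42.3 CPM in VI and 36.7 ± 24.7 in VE, and Gm42418, a predicted gene. Gm42418 stood at 724 ± 308 CPM in VI and 394 ± 266 in VE. In control mice it stood at 585 ± 339 CPM in VI and 554 ± 386 in DI, so it did not separate VI from DI. For Ntng1, Slit2 and Esrrg the VE levels were near those of VI: Ntng1 stood at 603 ± 204 CPM in VE and 371 ± 131 in VI of control mice, and Slit2 at 542 ± 202 and 612 ± 218. Scn8a stood at 608 ± 130 CPM in VE and 575 ± 114 in VI of control mice, and Kcna1 at 95.1 ± 33.7 and 92.3 ± 51.6. Syt2 stood at 266 ± 62.9 and 327 ± 76.2, Nefm at 303 ± 97.1 and 387 ± 191, and Nefh at 122 ± 59.2 and 194 ± 47.4. The higher levels over DI were thus not particular to VI. In control mice, Tmem132d, at 111 ± 61.2 against 28.5 ± 25.3 CPM, and Ebf2, at 55.4 ± 31.5 against 19.1 ± 19.0, were also higher in VI than in VE. Cacna2d1, the calcium channel subunit bound by gabapentin, was lower in VI than in VE, at 151 ± 64.2 against 484 ± 173 CPM, and higher than in DI, at 59.5 ± 26.8.

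The 12 genes that stood highest in VI over both DI and VE had modest differences. Erbb4, a neuregulin receptor (chromosome 1 from 68032186 to 69108059, minus strand), was the most abundant of them by summed UMIs. It stood at 682 to 1598 CPM in VI of the 8 control mice, a mean of 1046 ± 305, against 273 ± 58.7 in DI and 375 ± 153 in VE. VI was above both in 8 of 8 mice, but DE, at 1499 CPM, was higher still. Foxp2, Myh14, a non-muscle myosin, at 76.7 ± 31.5 CPM in VI, 14.2 ± 10.2 in DI and 26.9 ± 18.7 in VE, and Col16a1, a collagen, at 61.2 ± 29.3, 18.4 ± 11.4 and 11.8 ± 12.1, were also among them. The others were AC154863.1, Pigs, Prep, Adamtsl5, Fancc, Tmem50b, Patl1 and Ndufaf5, at 27.0 to 67.1 CPM in VI.

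Several glutamate receptor genes were lower in VI than in DI. Among 16 ionotropic glutamate receptor genes at 20 CPM or more, 3 were lower and none higher, beside 2.92% lower and 2.12% higher over all genes, with a median difference of -0.34 against 0.08. Gria1, an AMPA receptor subunit, stood at 417 ± 63.9 CPM in VI, 1412 ± 197 in DI and 514 ± 124 in VE. Grik1 and Grik2, kainate receptor subunits, stood at 403 ± 153 against 798 ± 246 CPM and at 989 ± 208 against 2035 ± 268 in DI. Of 6 metabotropic receptors, Grm3, Grm5 and Grm7 were lower, and Grm5 stood at 1303 ± 164 against 3238 ± 508 CPM. Against VE none of these receptors passed the rule in either direction.

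Several ion channel genes were also lower in VI than in DI. Of 13 fast potassium channel genes measured against DI, 5 were lower (Kcnc2, Kcnd3, Kcnip1, Kcnip2 and Kcnq3) and none higher, beside 2.92% lower and 2.12% higher over all genes, with a median of -0.98 against 0.08. Of 12 calcium and HCN channel genes, 2 were lower (Cacna1e and Cacna1g) and 1 higher (Cacna2d1), with a median of -0.37. Of 10 sodium channel genes, 2 were lower (Scn3b and Fgf13) and none higher, with a median of -0.09. Kcnc2, the fast channel Kv3.2, stood at 367 ± 79.5 CPM in VI and 922 ± 177 in DI, and Kcnq3, an M-current subunit, at 461 ± 98.1 and 1090 ± 152. Cacna1g, a low-threshold calcium channel, stood at 14.3 ± 13.6 against 138 ± 48.2 CPM, and Cacna1e at 199 ± 66.3 against 872 ± 260. Bcan, which encodes a perineuronal net proteoglycan, stood at 119 ± 62.8 CPM in VI, 36.7 ± 26.6 in DI and 120 ± 75.8 in VE. None of 5 glycine receptor and gephyrin genes and none of 13 GABA receptor genes passed in either direction, and the glycine receptor subunit Glra1 stood at 771 ± 213 CPM in VI, 726 ± 182 in DI and 776 ± 119 in VE.

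Of peptides and modulators, Penk, which encodes enkephalin precursor, stood at 12.0 ± 9.04 CPM in VI and 57.5 ± 59.6 in DI and was lower in 8 of 8 mice. Nos1, neuronal nitric oxide synthase, stood at 3.21 ± 4.79 and 76.9 ± 45.8 CPM. Tacr1, the substance P receptor, stood higher in VI, at 59.7 ± 38.0 against 2.74 ± 4.11 CPM, in 8 of 8 mice. Htr1f, a serotonin receptor, stood at 150 ± 66.4 and 66.3 ± 41.4. Of 8 monoamine receptor genes measured, Htr1f alone was higher and none lower. Of 2 peptide genes measured, Penk was lower and none higher. Over all genes 2.12% were higher and 2.92% lower. Nos1 and Tacr1 belong to no list and were among the 8 genes with the largest differences in each direction.

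Within VI, each population had its own leading genes, given here as pooled CPM with no test, since the populations are clusters of these nuclei. VI-5 was led by Dcun1d1 at 94.9 CPM, Grm8, a metabotropic glutamate receptor, at 414, and Ndst4, a heparan sulfate enzyme, at 249. VI-4 was led by Cdh6, a cadherin, at 177, Etv6, an ETS factor, at 166, and Il1rapl2 at 708. For Il1rapl2 the mean over mice was 358 ± 380 CPM in VI-4 (n = 4) and 351 ± 203 in VI-5 (n = 9), with medians of 226 and 347, so its pooled lead was not seen over mice. Ndst4 likewise had medians of 206 CPM in VI-5 and 218 in VI-4. VI-3 was led by Tenm3, a teneurin, at 1105, and Cacng2, an AMPA receptor auxiliary subunit, at 457. VI-1 was led by Ntng2, a netrin-G gene, at 142, Psma1, a proteasome subunit, at 107, and Map2k2, a kinase of the ERK cascade, at 132. No leading gene of VI-3 reached 2-fold over every other population, where Tenm3 stood highest at a smallest log2 difference of 0.69.

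VI-2 was led by Mtor and by mitochondrial ribosomal RNA. Mtor came first at 523 CPM, but 256 of its 282 UMIs lay in 1 nucleus of control 9 that held 5501 UMIs, and no other VI-2 nucleus held more than 2. The genes mt-Rnr2, at 15356 CPM, and mt-Rnr1, at 1065 CPM, followed, with Anp32b, Gtf3c3 and Begain. Anp32b was seen in 46 and Begain in 50 of the 219 nuclei.

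The study asked which spinal cells respond to a painful stimulus and to a motor task. In VI nuclei, the share of coded neurons was 10.9% ± 3.62 (SD, n = 10) in formalin, 15.4% ± 12.9 (n = 9) in control and 13.7% ± 13.0 (n = 5) in rotarod mice. By two-sided exact permutation over mice the formalin and rotarod differences gave p = 0.355 and p = 0.776, or 0.931 after Benjamini-Hochberg adjustment over the 6 single-value tests. Without the 3 control mice with cx titles the control mean was 8.51%, and formalin stood 2.34 points above it, with exact p = 0.205. With VI-2 and VI-3 nuclei left out of the VI count, the shares were 10.5% in formalin and 7.65% in control mice, with exact permutation p = 0.0725. These nuclei were kept among the coded neurons, which lowers the shares of mice rich in them. The direction of the difference thus turned with the mice or populations used, and fewer coded nuclei and fewer VI cells cannot be told apart.

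UMIs per VI nucleus differed between groups by less than their spread over mice. The mean over mice of the median was 3827 ± 1641 (n = 10) in formalin, 3605 ± 1277 (n = 8) in control and 4572 ± 2051 (n = 4) in rotarod mice, with exact permutation p = 0.763 and p = 0.343.

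Immediate early genes, which mark recent activity, were barely seen in VI nuclei. Fos was detected with 2 UMIs in formalin mice, all in formalin 5, 4 UMIs in 2 of 8 control mice and 3 UMIs in rotarod 5. Its mean was 1.31 ± 4.13 CPM in formalin (n = 10), 1.41 ± 2.66 in control (n = 8) and 4.39 ± 8.78 in rotarod mice (n = 4), with exact permutation p = 1 and p = 0.588. A count of 0 would allow up to 4.08 CPM over all formalin VI nuclei, so a difference of this size was not detectable at this depth. The other genes are given in the order control, formalin and rotarod mice, whose VI nuclei held 1730660, 736074 and 607443 UMIs in all. Nr4a1 had 13, 2 and 6 UMIs, or a mean of 12.4 ± 11.6, 1.47 ± 3.12 and 9.37 ± 10.2 CPM. Npas4 had 12, 7 and 6 UMIs, or 7.81 ± 10.5, 8.43 ± 11.4 and 9.88 ± 2.80 CPM. Egr1 had 7, 4 and 8 UMIs, or 8.17 ± 18.2, 2.77 ± 4.74 and 9.48 ± 13.1 CPM. The values of these genes overlapped between groups. Junb had 3, 3 and 2 UMIs, and Arc had 1 UMI in control mice and none elsewhere. None of these genes had enough counts to enter the count model.

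Across 2763 genes with enough counts, none passed an adjusted p of 0.05 in edgeR's quasi-likelihood test in formalin against control (0%), rotarod against control (0%) or formalin against rotarod mice (0%). At an unadjusted p under 0.05 there were 257, 131 and 226 genes. DESeq2, on all genes with any count, called 73, 0 and 11. Of the list members that could be tested, 90 memberships over the lists, none passed, and 37 stood higher in formalin than in control, beside a median log2 fold change of 0.00 over all genes. The 6 oligodendrocyte markers stood highest in control mice, with overlapping ranges: their sum in VI nuclei had a median of 1104 CPM in control (406 to 3245), 699 in formalin (228 to 1364) and 588 in rotarod mice (500.3 to 858). The 2 of them that could be tested had a median log2 fold change of -1.25 in formalin and -1.05 in rotarod against control mice, with smallest adjusted p of 0.382 and 0.999 in edgeR. The part of these transcripts in the gene differences was not tested.

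The 5 genes with the smallest p for formalin are given as values. Ankfn1 (chromosome 11 from 89390223 to 89777653, minus strand), a gene of little known function, stood at 20.8 to 228 CPM in control, 0 to 108 CPM in formalin and 23.3 to 58.5 CPM in rotarod mice, so the groups overlapped. Its log2 fold change was -1.99 ± 0.42 (SE), with an adjusted p of 0.0591 in edgeR. Over 24 alternatives the adjusted p ran from 1.66e-05 to 0.463, and it was under 0.05 in 6: with no filter on low counts and without control 1, 3 or 9 or formalin 8 or 9. Prr5l, a regulator of mTOR complex 2, stood at 131 ± 80.9 CPM in control and 55.4 ± 53.8 in formalin mice, with the same adjusted p of 0.0591, and at 47.9 ± 9.81 in rotarod mice. Its difference went from -1.61 to -1.17, with an adjusted p of 0.787, when VI-2 and VI-3 nuclei were left out. Over 24 alternatives its adjusted p ran from 3.03e-05 to 0.787, and it was under 0.05 in 6: with no filter on low counts and without control 1, 3 or 5 or formalin 1 or 8.

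Rmnd1, a gene of mitochondrial translation, and Kcna2, the potassium channel Kv1.2, stood higher in formalin mice. Rmnd1 stood at 116 to 280 CPM in formalin and 68.2 to 143 in control mice, which gave a log2 difference of 0.92 ± 0.23 with an adjusted p of 0.178. Kcna2 stood at 223 ± 89.9 and 125 ± 50.9 CPM, 0.89 ± 0.25, with an adjusted p of 0.37. For both genes the lowest control values included controls 7 and 9, and without the 3 control mice with cx titles the differences were 0.56 and 0.48, with an adjusted p of 0.998 for each. Cacna1i, a low-threshold calcium channel, stood at 39.2 ± 34.1 CPM in formalin and 96.3 ± 41.7 in control mice, with an adjusted p of 0.254.

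**Figure D5:**
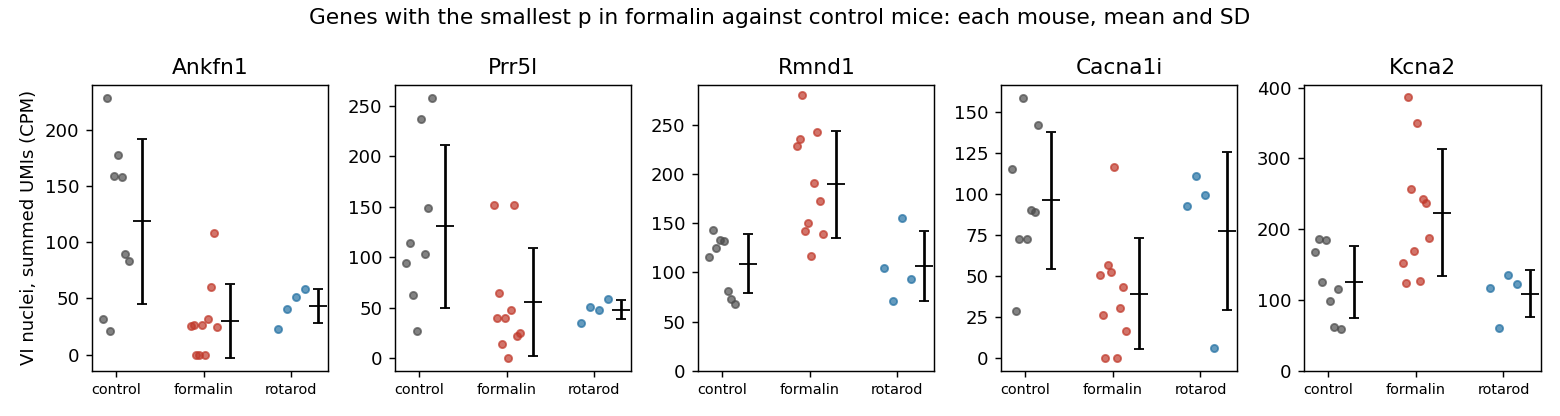
CPM in the summed VI nuclei of each mouse (8 control, 10 formalin, 4 rotarod) for the 5 genes with the smallest p in formalin against control mice, with the mean and SD. The groups overlap for every gene, and none passed an adjusted p of 0.05.

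For rotarod against control mice, the smallest p belonged to Gm20756, Ppm1h, Yars, Prr5l and Cep112. Ppm1h, a protein phosphatase, stood at 310 to 505 CPM in rotarod and 157 to 231 in control mice, so the groups did not overlap, with an adjusted p of 0.238. Yars, a tyrosyl-tRNA synthetase, stood at 224 ± 137 and 89.4 ± 20.4 CPM, with an adjusted p of 0.238. For formalin against rotarod mice, Klc2, Gm28928, 1700020I14Rik and Cep112 were among the first, each with an adjusted p of 0.37.

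The group differences of VI nuclei were compared with those of DI and VE nuclei of the same mice by an interaction term, with the mouse as a block. No gene passed for formalin or rotarod against control in VI minus DI (0% of 3397) or VI minus VE (0% of 4635). At an unadjusted p under 0.05 there were 143 and 109 genes for DI and 233 and 148 for VE. The smallest adjusted p was 0.312, for Meis2 in formalin against VE.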

How the data were processed

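The deposited table holds raw UMI counts, as the authors made them, of 32962 genes in 18000 barcodes. A second deposited table gives cell classes and populations, used as they stand. The genome builds are mm10 and GRCm38, per the submitters' processing notes. No aligner, annotation or treatment of intronic reads and strand is stated (not given in the sources used here), so overlapping genes and near-identical copies may share counts. Doublets were not called again. Nothing says how the authors filtered barcodes.

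Counts were summed per mouse and family, with at least 5 nuclei, and scaled to CPM. The mouse was the replicate. Groups were tested with edgeR 4.0.16 in R 4.3.3 (quasi-likelihood, TMM, expression filter by group, robust, 1 fit over 3 groups), adjusted by Benjamini-Hochberg over all genes at 0.05. DESeq2 1.42.0 was an alternative. Single values were compared by exact permutation. Differences between families and populations carry no test. Shares of nuclei were thinned to 1000 UMIs. Python 3.11.15 was used with numpy 2.4.6, scipy 1.17.1, pandas 2.3.3 and matplotlib 3.10.9.

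The fits were checked on simulated counts. Other settings tried were another scaling, no filter, at least 10 nuclei, thinning to 500 UMIs, merged formalin samples, fewer groups, mice or populations in the fit, and leaving out each mouse. Members, the 34 gene lists (298 genes, 293 in the table) and rules were chosen with earlier results of these data known. The rule named list genes, the 12 genes highest over both DI and VE, 6 genes per population and, where fewer than 5 genes were called, the 5 with the smallest p; other genes were chosen after their values were seen. The samples were counted as separate mice, which is not certain for the formalin samples, given the resemblance described above. Replicate numbers of formalin and rotarod samples do not pair them: same-numbered deviations correlated at -0.11 to 0.11, with 1 pair over 0.1. A few genes covered by these rules are not reported here.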

Additional observations from a re-analysis of the deposited data

Results flagged for a closer look

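In 69 groups of mice examined for a mouse far from the others, 15 held one. For normally distributed values, chance alone gives about 1 in 20. Where all mice but 1 stand at 0, as for Fos in formalin and in rotarod mice, a flag is certain. The same mice, and genes picked for a small p, recur among the groups, so 15 of 69 does not measure an excess. The VI share of coded neurons was 36.5% in rotarod 3, with the next rotarod mouse at 11.5%, and 19.7% in formalin 1, with the next at 12.3%.

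Formalin 6, whose VI nuclei hold the fewest UMIs (8589), stood apart for 4 genes: Slc6a5 at 582 CPM, with the next formalin mouse at 202, Cacna1i at 116, Gm20756 and Yars both at 466 CPM. This mouse had 5 VI nuclei, so each of these levels rests on very few UMIs. The Cacna1i value is the lowest nonzero level it can show. Gad2 stood at 157 CPM in control 2, and Klc2 at 238 CPM in control 5.

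The immediate early genes rested on few counts. Fos reached 13.1 CPM in the mouse formalin 5 and 17.6 in rotarod 5, with all other mice of those groups at 0. Egr1 stood at 53.0 CPM and Junb at 26.5 CPM in control 5. Junb also reached 25.3 CPM in formalin 1 and 7.95 in rotarod 4, and Npas4 at 31.5 CPM in control 1.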

How the results depend on the processing

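The calls between groups depended on tool and filter. For formalin against control, where edgeR called 0 genes, DESeq2 called 73, all lower in formalin, no filter on low counts gave 42 and thinning to 500 UMIs gave 1. For rotarod against control, no filter gave 2 and fitting only the 2 groups 1. For formalin against rotarod, DESeq2 gave 11, no filter 15, only the 2 groups 7 and thinning 1. Leaving out each mouse gave 0 to 3, 0 to 3 and 0 to 0 calls in the same order. The replicate block on the 4 shared formalin and rotarod numbers gave 21 calls, against 5 for the same samples without the block. The interaction with VE gave 1 call for formalin with no filter and 1 for rotarod without the control mice with cx titles. The cause of these differences was not tested.

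The counts of genes higher in VI depended on the mice and the pseudocount. Against DI the 151 genes became 25 over all mice and 79 with a pseudocount of 20 CPM, and 169 to 215 with 1 mouse left out. Against VE the 40 genes became 2, 11 and 47 to 79, where fewer mice make the every-mouse condition easier; leaving out control 1, 2, 5, 6, 7 or 8 moved the count by over 1.5 times. Dnttip1, lower in VI than in VE in control mice, stood at 0.0682 (log2) over all mice.

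The formalin share difference of -4.54 points was 2.34 without the control mice with cx titles and -5.75 to -0.941 with 1 mouse left out. It was 2.83 with VI-2 and VI-3 left out of the VI count but kept among the coded neurons. The rotarod difference of -1.71 was 5.17 without those control mice and -7.40 to 1.89 with 1 mouse left out. UMIs per nucleus differed by 221 for formalin, by -922 without VI-2 and VI-3 and by -180 to 591 with 1 mouse left out, and for rotarod by 39.7 to 1580. Fos for formalin went from -0.10 to 0.509 CPM without VI-2 and VI-3, 0.0407 with formalin samples merged and -1.41 to 0.637 with 1 mouse left out, and for rotarod -1.41 to 4.44. No single-value p was under 0.05 in any of these settings. Depth limits these levels: a mouse held as few as 5 VI nuclei, and a count of 0 over a group allows up to 1.73 CPM in control, 4.08 in formalin and 4.94 in rotarod mice.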
